A study of Mus musculus with 10 samples.

Results

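The corticosteroid receptors *Nr3c1* and *Nr3c2*, the glucocorticoid-activating enzyme gene *Hsd11b1* and the target genes *Fkbp5*, *Sgk1*, *Tsc22d3*, *Zbtb16* and *Cdkn1c* were taken by symbol from a table of hippocampal gene expression. All 8 genes were listed, among 15900 genes in all, and all 8 passed the filter on low values that left 15851 genes for testing. The expression levels came from cap analysis of gene expression (CAGE), which reads capped 5′ ends of RNA, each tag standing for a single start of transcription. Values are tags scaled to the same library total (CPM). The study followed the first days after status epilepticus (SE) induced by pilocarpine (PILO), a muscarinic agonist, and asked which changes levetiracetam (LEV), an antiseizure drug, altered. In bulk tissue, fewer cells of a type and less RNA per cell cannot be told apart.

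The samples were whole hippocampi of 10 male ICR (CD-1) mice, aged 9 to 10 weeks at injection, and each of the 5 groups held 2 mice. No PILO was given to the pre-SE mice, and the labels call them untreated, whereas the study's methods describe saline injection of control mice. Mice of the other 4 groups received methyl scopolamine, a peripheral muscarinic blocker, and then PILO, had 5 generalized convulsive seizures, and were given diazepam to stop SE. SE 6 h and SE 2 days mice received no LEV. SE + LEV 6 h mice had received oral LEV 1 time and SE + LEV 2 days mice 5 times before sampling. Mice with the same replicate number were different animals.

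Corticosterone, the main glucocorticoid of the mouse, binds the mineralocorticoid receptor (encoded by *Nr3c2*) with high affinity and the glucocorticoid receptor (encoded by *Nr3c1*) with lower affinity, and the hippocampus is known for holding both. Each receptor rests in the cytoplasm on heat shock proteins, enters the nucleus when hormone is bound, and acts on genes near its binding motif. Corticotropin-releasing hormone drives the pituitary and adrenal release of the hormone, and 11β-hydroxysteroid dehydrogenase type 1 regenerates it inside cells from an inactive form.

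The DNA motif of the receptors consists of 2 inverted half-sites. The half-sites GNACA and TGTNC, separated by 3 bases of any kind, read the same on both strands and were searched from 2000 bases upstream to 200 bases downstream of each start of the mm9 annotation (GENCODE), and 2 of the 8 genes had a match, *Sgk1* in 5 of 11 windows and *Fkbp5* in 2 of 5. The 5 *Sgk1* windows overlap and hold the same single site. Of the 55700 windows of this length at listed protein-coding genes 3.36% had a match, and of these 13954 genes 7.23%. The 4 sites are shown because they are all the matches found at these genes, so that the values of *Sgk1* and *Fkbp5* can be read beside them. Capitals mark the match, and each sequence is read on the strand of its gene.

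Sgk1, chr10:21713493-21713535, plus strand, within the gene and in no exon, 188 bases upstream of the annotated start at 21713696: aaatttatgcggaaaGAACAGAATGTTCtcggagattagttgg

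Fkbp5, chr17:28579350-28579392, minus strand, within the gene and in no exon, 710 bases upstream of the annotated start at 28578667: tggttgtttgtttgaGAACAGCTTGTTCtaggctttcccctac

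Fkbp5, chr17:28655110-28655152, minus strand, outside annotated genes, 668 bases upstream of the annotated start at 28654469: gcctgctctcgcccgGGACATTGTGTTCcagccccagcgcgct

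Fkbp5, chr17:28655962-28656004, minus strand, outside annotated genes, 1520 bases upstream of the same start: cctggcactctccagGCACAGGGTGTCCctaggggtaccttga

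A match describes letters only. No match was found in the windows of *Nr3c1*, *Nr3c2*, *Tsc22d3*, *Zbtb16*, *Hsd11b1* and *Cdkn1c*, which says only that these letters are not in these windows.

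The tags on listed genes, recovered from the CPM values, totalled 10540698 to 51710968 per library, so that 1 tag was worth 0.0193 to 0.0949 CPM. All 5 neuron markers searched were detected in every library, as were *Prox1* and *C1ql2*, markers of the dentate granule cells of the hippocampus. The summed CPM of the neuron markers was 4736 to 6268 in pre-SE mice and 3055 to 3784 in the 4 mice sampled at 2 days. The summed CPM of 4 microglia markers was 128 to 145 in pre-SE, 56.2 to 70.5 in SE 6 h and 209 to 260 in the 2 days groups. That of 3 blood leukocyte markers was 2.56 to 3.22 in pre-SE and 15.9 to 21.4 at 2 days, and that of 2 red cell markers 22.6 to 23.8 in pre-SE and 2.79 to 12.5 in the 8 mice after SE, and the part of these cells in the results was not tested. In 4 libraries (pre-SE 2, SE 6 h 2, SE + LEV 6 h 1 and SE + LEV 2 days 1) *Ttr*, the transthyretin gene, which marks choroid plexus, stood at 843 to 3936 CPM, against 4.33 to 55.6 CPM in the other 6, and the results are given with and without these libraries where that matters. Without them 4 of the 5 groups held a single mouse each. Neither the part of the missing replicates nor that of choroid plexus in calls lost or gained there was tested.

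None of the 8 genes was called in any of the 9 comparisons between groups, at an adjusted p of at most 0.05 in a limma fit of log2(CPM + 0.1) over all genes and all 10 libraries. Differences on that scale are given as logFC. In SE 6 h against pre-SE, 0 of 8 were called and 2 had an unadjusted p under 0.05, where 2.96% of all tested genes were called and 17.7% had such a p. In SE 2 days against pre-SE, the numbers were 0 and 2 of 8, where 5.66% and 19.8% of all genes passed. The comparisons that share pre-SE or SE 6 h mice are not independent of each other. With 2 mice against 2, the groups of 5 of the 8 genes did not overlap in SE 6 h against pre-SE and those of 4 in SE 2 days against pre-SE, which is near the 49.9% and 52% of all genes.

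**Figure D1:**
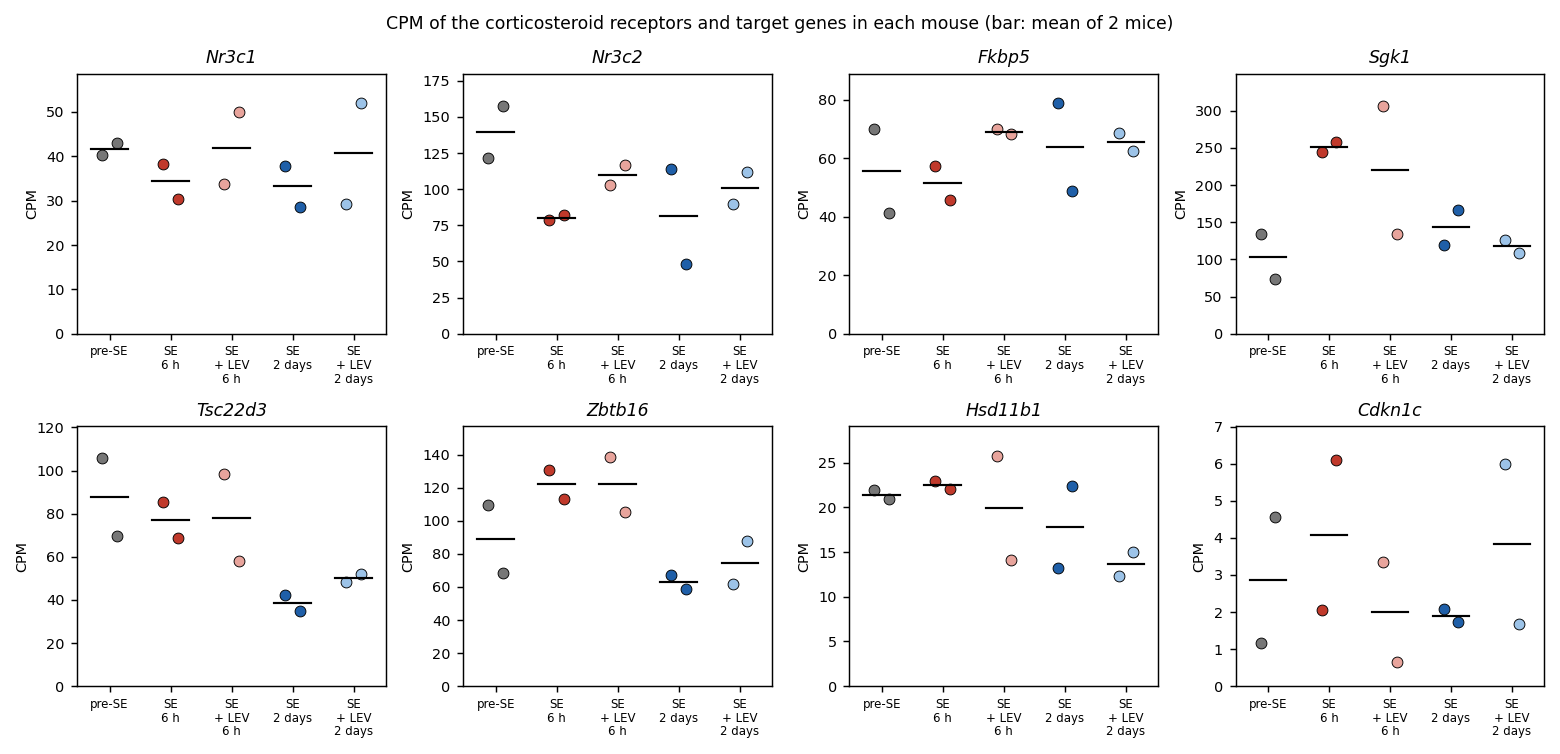
Expression (CPM, linear axes from 0) of the 8 genes in each of the 10 mice, grouped by treatment and time, with replicate 1 on the left, replicate 2 on the right and a bar at the mean of 2 mice. *Tsc22d3* is lower in all 4 mice sampled at 2 days than in the other 6, and *Sgk1* is above 244 CPM in both SE 6 h mice.

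The mineralocorticoid receptor gene *Nr3c2* (ENSMUSG00000031618, mm9 chromosome 8, 79423341 to 79768911, plus strand) showed the largest difference of the 2 receptor genes. Its level was 121 and 158 CPM in the pre-SE mice, 78.7 and 81.8 in SE 6 h, 103 and 117 in SE + LEV 6 h, 114 and 48.5 in SE 2 days, and 89.8 and 112 in SE + LEV 2 days. All 8 mice after SE were below both pre-SE mice. The 2 SE 2 days mice differed 2.35-fold, a gap at least as wide as in only 4.8% of genes in that group, so the SE 2 days mean depends on a single low mouse.

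The logFC of *Nr3c2* was -0.78 (standard error 0.35, 95% interval -1.56 to -0.01, adjusted p = 0.279) in SE 6 h and -0.89 (standard error 0.35, -1.67 to -0.12, adjusted p = 0.187) in SE 2 days against pre-SE, so that neither passed the test. Without SE 2 days replicate 1, which held the higher value, the second became -1.51 with an adjusted p of 0.0241, and without replicate 2 it was -0.28. Against the SE mice of the same time without LEV, *Nr3c2* had a logFC of 0.45 in SE + LEV 6 h (-0.33 to 1.23, adjusted p = 1), where the groups did not overlap, and 0.43 (-0.35 to 1.21, adjusted p = 1) in SE + LEV 2 days. Ordered by mean level, the groups ran from pre-SE (140 ± 25.9 CPM, SD, n = 2) through SE + LEV 6 h (110 ± 9.91), SE + LEV 2 days (101 ± 15.9) and SE 2 days (81.3 ± 46.4) to SE 6 h (80.3 ± 2.17). Only pre-SE and SE + LEV 6 h, among neighbours in that order, did not overlap. The annotation places *Gm10649* and *SNORA17* on the opposite strand and *U2* on the same strand within *Nr3c2*, and whether strand was used in counting is not given in the sources used here.

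The glucocorticoid receptor gene *Nr3c1* (ENSMUSG00000024431, chromosome 18) varied least of the 8 genes over the 10 mice, by 1.82-fold from the lowest to the highest. It stood at 40.3 and 43 CPM in pre-SE, 38.2 and 30.4 in SE 6 h, 33.8 and 50 in SE + LEV 6 h, 37.9 and 28.7 in SE 2 days, and 29.3 and 52 in SE + LEV 2 days. Both SE groups without LEV lay just below pre-SE without overlap, and both LEV groups spanned it. The logFC was -0.29 (adjusted p = 0.678) in SE 6 h and -0.34 (95% interval -1.05 to 0.38, adjusted p = 0.634) in SE 2 days against pre-SE. The interval holds differences as large as those estimated for *Nr3c2*. By mean level the order was SE + LEV 6 h (41.9 ± 11.4 CPM, SD, n = 2), pre-SE (41.6 ± 1.87), SE + LEV 2 days (40.7 ± 16.1), SE 6 h (34.3 ± 5.52) and SE 2 days (33.3 ± 6.53), with overlap between all neighbours.

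*Hsd11b1* (ENSMUSG00000016194, chromosome 1, 195047824 to 195090248, minus strand), which encodes the enzyme that regenerates active glucocorticoid, was measured at 21.9 and 20.9 CPM in pre-SE and 22.9 and 22.1 CPM in SE 6 h. It was at 25.8 and 14.1 CPM in SE + LEV 6 h, 13.2 and 22.5 in SE 2 days, and 12.3 and 15 in SE + LEV 2 days. At 6 h without LEV both mice were just above the pre-SE mice, and the logFC of 0.07 had an interval of -0.70 to 0.84 (adjusted p = 0.938). The lowest group was SE + LEV 2 days (13.7 ± 1.94 CPM, SD, n = 2), with a logFC of -0.65 against pre-SE (-1.42 to 0.12, adjusted p = 0.593), and its mice lay below both pre-SE mice. Means ran from SE 6 h (22.5 ± 0.62) through pre-SE (21.4 ± 0.71), SE + LEV 6 h (19.9 ± 8.21) and SE 2 days (17.8 ± 6.52) to SE + LEV 2 days, and of these neighbours SE 6 h and pre-SE alone did not overlap. *4930570N18Rik* and *1600010F14Rik* overlap *Hsd11b1* on the other strand.

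Among the targets, *Sgk1* (ENSMUSG00000019970, chromosome 10, 21601990 to 21719709, plus strand), which encodes a serum- and glucocorticoid-regulated kinase acting on ion channels and transporters, had the highest logFC in SE 6 h against pre-SE. Its level was 134 and 73.4 CPM in pre-SE and 245 and 257 CPM in SE 6 h. It was at 306 and 134 CPM in SE + LEV 6 h, 120 and 166 in SE 2 days, and 126 and 109 in SE + LEV 2 days. Both SE 6 h mice exceeded both pre-SE mice and all 4 mice at 2 days, and the SE + LEV 6 h mice differed 2.27-fold, with 1 above and 1 below the SE 6 h mice. The means ran from SE 6 h (251 ± 9.07 CPM, SD, n = 2) through SE + LEV 6 h (220 ± 121), SE 2 days (143 ± 33.1), then SE + LEV 2 days (117 ± 12.3) to pre-SE (104 ± 42.7), and each neighbouring pair overlapped.

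The logFC of *Sgk1* in SE 6 h against pre-SE was 1.34 (standard error 0.39, 95% interval 0.47 to 2.21), a 2.53-fold difference with an adjusted p of 0.114, and under the 19 alternatives the logFC ran from 0.87 to 1.77 with 0 calls. In SE + LEV 6 h against pre-SE it was 1.03 (0.16 to 1.90, adjusted p = 0.424), and in SE + LEV 6 h against SE 6 h it was -0.31 (-1.18 to 0.56, adjusted p = 1). The SE 2 days mice had an estimate of 0.51 against pre-SE (-0.36 to 1.38, adjusted p = 0.54) and -0.83 against SE 6 h (-1.70 to 0.04, adjusted p = 0.27). The summed CPM of the 5 endothelial markers stood at 57.4 to 62.9 in pre-SE and 110 to 170 in SE 6 h, with *Cdh5* called higher and 0 markers listed at 0. Of these markers 4 had a higher estimate, and 1 was lower in SE 6 h without overlap. The part of endothelial cells in the *Sgk1* values was not tested.

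*Tsc22d3* (ENSMUSG00000031431, chromosome X, 137074067 to 137135198, minus strand), which encodes the glucocorticoid-induced leucine zipper, an anti-inflammatory transcriptional regulator, had its lowest values at 2 days. It was measured at 106 and 69.9 CPM in pre-SE, 85.6 and 68.9 in SE 6 h, and 98.5 and 58 in SE + LEV 6 h. At 2 days it was at 42.4 and 34.8 CPM without LEV and at 48.2 and 52 CPM with LEV. All 4 mice at 2 days were below all 6 other mice, a separation shared by 1.14% of all tested genes. The 2 LEV-treated mice at 2 days were both above the 2 mice without LEV. Means ran from pre-SE (87.9 ± 25.5 CPM, SD, n = 2) through SE + LEV 6 h (78.2 ± 28.6), SE 6 h (77.2 ± 11.8) and SE + LEV 2 days (50.1 ± 2.74) to SE 2 days (38.6 ± 5.42), and each of the last 3 groups was separate from its neighbours among them.

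The logFC of *Tsc22d3* in SE 2 days against pre-SE was -1.16 (standard error 0.30, 95% interval -1.83 to -0.49), 0.447 of the pre-SE level, with an adjusted p of 0.0537 that just missed the threshold. It passed, with the same logFC, when either SE + LEV 6 h mouse was left out of the fit (adjusted p = 0.0408 in both cases), and under 3 further alternatives. The adjusted p over the 19 alternatives ran from 0.0121 to 0.368, with the logFC between -1.46 and -0.86. Against SE 6 h the interval of the logFC was -1.67 to -0.33 (adjusted p = 0.103). In SE + LEV 2 days it was -0.78 against pre-SE (-1.45 to -0.11, adjusted p = 0.336) and 0.38 against SE 2 days (-0.29 to 1.05, adjusted p = 1).

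*Zbtb16* (ENSMUSG00000066687, chromosome 9, 48462416 to 48644050, minus strand), which encodes a zinc finger transcription factor induced by glucocorticoids in many tissues, was highest at 6 h and lowest at 2 days. It was measured at 110 and 68.3 CPM in pre-SE, 131 and 113 in SE 6 h, and 139 and 105 in SE + LEV 6 h. At 2 days it was at 67.3 and 58.8 CPM without LEV and at 61.5 and 87.6 CPM with LEV. All 4 mice at 6 h exceeded all 4 mice at 2 days. The pre-SE mice lay below both SE 6 h mice and above both SE 2 days mice, and overlapped both LEV groups. By mean the order was SE 6 h (122 ± 12.1 CPM, SD, n = 2), SE + LEV 6 h (122 ± 23.8), pre-SE (89.0 ± 29.4), SE + LEV 2 days (74.6 ± 18.4) and SE 2 days (63.0 ± 6.00), with overlap between all neighbours. The estimate was 0.49 in SE 6 h against pre-SE (-0.14 to 1.13, adjusted p = 0.393), -0.46 in SE 2 days against pre-SE (-1.10 to 0.18, adjusted p = 0.427) and -0.95 in SE 2 days against SE 6 h (-1.59 to -0.32, adjusted p = 0.0996).

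The contrast of both 2 days groups with both 6 h groups, averaged over LEV treatment in the same fit, was added after the values had been seen and is a description of these mice. It called 2 of the 8 genes, both lower at 2 days, where 2.28% of all tested genes were called lower. In the same 2 genes all 4 mice at 2 days were below all 4 at 6 h, as in 3.89% of all genes. *Tsc22d3* had a logFC of -0.79 (standard error 0.21, 95% interval -1.27 to -0.32, adjusted p = 0.0457). *Zbtb16* had a logFC of -0.83 (standard error 0.20, -1.28 to -0.39, adjusted p = 0.0298). *Sgk1*, with -0.81 (standard error 0.28, -1.43 to -0.20, adjusted p = 0.0968), did not pass (it did without SE + LEV 6 h 2, with -1.11 and an adjusted p of 0.0304), and for *Fkbp5* the estimate was 0.10 (-0.38 to 0.59, adjusted p = 0.79).

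Each of these 2 calls was lost in several of the fits that left out 1 mouse. Leaving out any 1 of the 4 mice SE 6 h 1, SE 6 h 2, SE + LEV 6 h 1 and SE 2 days 1 raised the adjusted p of *Tsc22d3* to 0.138, 0.0686, 0.159 and 0.0842 and that of *Zbtb16* to 0.0977, 0.0577, 0.119 and 0.0716. Without SE 2 days 2 they were 0.134 and 0.0987, without SE + LEV 2 days 1 they were 0.133 and 0.113, and without SE + LEV 2 days 2 *Tsc22d3* had 0.0533. The logFC stayed between -0.99 and -0.60 for *Tsc22d3* and between -0.96 and -0.71 for *Zbtb16* in all 10 such fits. Without the 4 libraries high in *Ttr*, the values were -0.66 and -0.66, in a fit with a single mouse in 4 of the 5 groups. Beside these genes, the summed CPM of the 5 neuron markers was 3055 to 3784 in the 2 days mice and 3913 to 6268 in all others. The sum of the 5 oligodendrocyte markers was 1668 to 4258 at 2 days and 3201 to 6114 in all others. Of either list 0 markers were called in this contrast or listed at 0. At an unadjusted p under 0.05, 1 neuron and 2 oligodendrocyte markers were lower, where 26.7% of all genes had such a p in either direction. The part of either cell type was not tested. The summed CPM of the 2 dentate granule cell markers was 85.4 to 90.8 in pre-SE, 120 to 172 at 6 h and 62.2 to 116 at 2 days, with 0 listed at 0, and *Prox1* was called lower in this contrast (-0.85, adjusted p = 0.039). All 4 microglia markers were called higher, with logFC from 1.29 (*P2ry12*) to 2.79 (*Tmem119*) and sums of 56.2 to 108 at 6 h and 209 to 260 at 2 days. The share of all genes called higher in this contrast is not given here. *Aqp4*, an astrocyte marker (1.31), and *Ptprc*, a leukocyte marker (1.91), were also called higher, and *Cdh5*, an endothelial marker (-1.04), lower. Other markers of these lists went the other way. Of 5 astrocyte markers 2 had a higher estimate, and 2 were lower at an unadjusted p under 0.05, beside the same 26.7% of all genes. The astrocyte sum was 1530 to 2112 at 6 h and 1230 to 1702 at 2 days. The leukocyte markers *S100a8* (-0.73) and *S100a9* (-1.31) had lower estimates, and 2 of 5 endothelial markers had higher ones. The part of these cell types in the values of *Tsc22d3* and *Zbtb16* was not tested.

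*Fkbp5* (ENSMUSG00000024222, chromosome 17, 28536040 to 28654469, minus strand), which encodes a cochaperone that lowers the hormone affinity of the receptor and is a common readout of its activity, stayed within the spread of its pre-SE mice at nearly every point. It was measured at 70 and 41.2 CPM in pre-SE, 57.3 and 45.6 in SE 6 h, 69.9 and 68.1 in SE + LEV 6 h, 78.8 and 48.9 in SE 2 days, and 68.6 and 62.6 in SE + LEV 2 days. The value of 78.8 CPM was the single one outside the pre-SE range. The logFC was -0.07 in SE 6 h against pre-SE (95% interval -0.75 to 0.61, adjusted p = 0.928) and 0.21 in SE 2 days (-0.47 to 0.89, adjusted p = 0.77). Each SE + LEV 6 h mouse exceeded both SE 6 h mice, and the logFC was 0.43 (-0.25 to 1.12, adjusted p = 1). The means, from SE + LEV 6 h (69.0 ± 1.27 CPM, SD, n = 2) through SE + LEV 2 days (65.6 ± 4.28), SE 2 days (63.9 ± 21.1) and pre-SE (55.6 ± 20.4) to SE 6 h (51.4 ± 8.32), overlapped between all neighbours. *7SK* lies over the gene on the other strand.

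*Cdkn1c* (ENSMUSG00000037664, chromosome 7, 150644255 to 150646955, minus strand), which encodes the cell cycle inhibitor p57, was the least expressed, with 7 to 262 tags per library. Its level was 1.17 and 4.56 CPM in pre-SE, 2.05 and 6.1 in SE 6 h, 3.36 and 0.66 in SE + LEV 6 h, 2.08 and 1.72 in SE 2 days, and 5.99 and 1.68 in SE + LEV 2 days. Within each of 4 groups 1 mouse was 2.88 to 4.55 times the other on the log2(CPM + 0.1) scale, and the groups overlapped in every comparison. The mean was highest in SE 6 h (4.08 ± 2.86 CPM, SD, n = 2) and lowest in SE 2 days (1.90 ± 0.25). Its 95% intervals were the widest of the 8 genes, with a half-width of 1.97 on the log2 scale.

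The 4 libraries high in *Ttr* held the 4 highest values of *Cdkn1c*, 3.36 to 6.1 CPM, and the other 6 libraries held 0.66 to 2.08 CPM. The summed CPM of the 4 choroid plexus markers was 864 to 3991 in the former and 8.37 to 66.2 in the latter, with *Aqp1* at 0 in at least 1 library, and its part in the *Cdkn1c* values was not tested. For none of the other 7 genes did the 4 libraries lie apart from the 6, as *Tsc22d3*, for example, spanned 48.2 to 98.5 CPM in the 4 and 34.8 to 106 CPM in the 6.

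**Figure D2:**
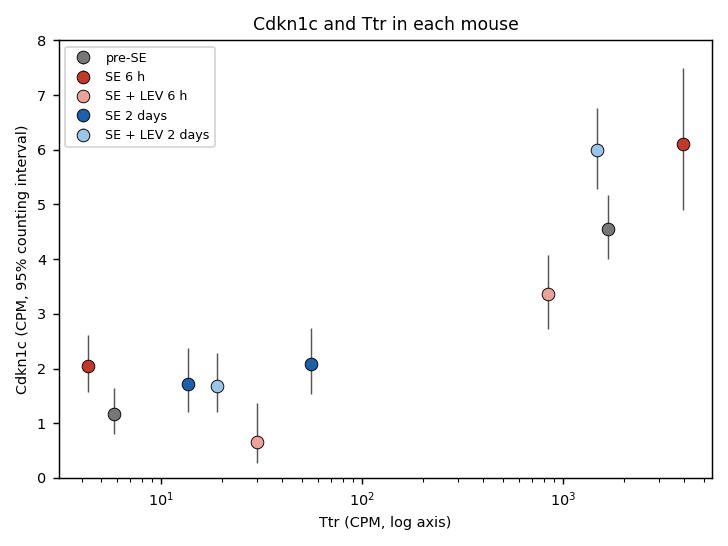
*Cdkn1c* (CPM, with 95% Poisson intervals that cover counting error only) against *Ttr* (CPM, log axis) in each of the 10 mice, coloured by group. The 4 libraries with *Ttr* above 800 CPM hold 3.36 to 6.1 CPM of *Cdkn1c*, and the 6 others at most 2.08 CPM.

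In SE + LEV 6 h against SE 6 h, 0 of 8 genes were called and 0 had an unadjusted p under 0.05, where 0.0126% of all tested genes were called and 4.58% had such a p. In SE + LEV 2 days against SE 2 days, the numbers were again 0 and 0 of 8, with 0% called and 2.7% at an unadjusted p under 0.05 among all genes. The groups of *Nr3c2* and *Fkbp5* did not overlap at 6 h and those of *Tsc22d3* did not at 2 days, which is 2 and 1 of 8 beside 29.5% and 27.4% of all genes. The difference between the LEV effects at 2 days and at 6 h was called for 0 of 8 genes (0 at an unadjusted p under 0.05) and for 0 of all genes (2.38% at such a p). The largest estimates among the 7 genes other than *Cdkn1c* were those of *Nr3c2* (0.45) and *Fkbp5* (0.43) at 6 h and of *Nr3c2* (0.43) and *Tsc22d3* (0.38) at 2 days. Half-widths of the 95% intervals, which are not adjusted for the number of genes, ran from 0.64 to 1.97 over the 8 genes with a median of 0.74, a 1.67-fold difference, and a call over all genes needed a larger difference than its own half-width.

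**Figure D3:**
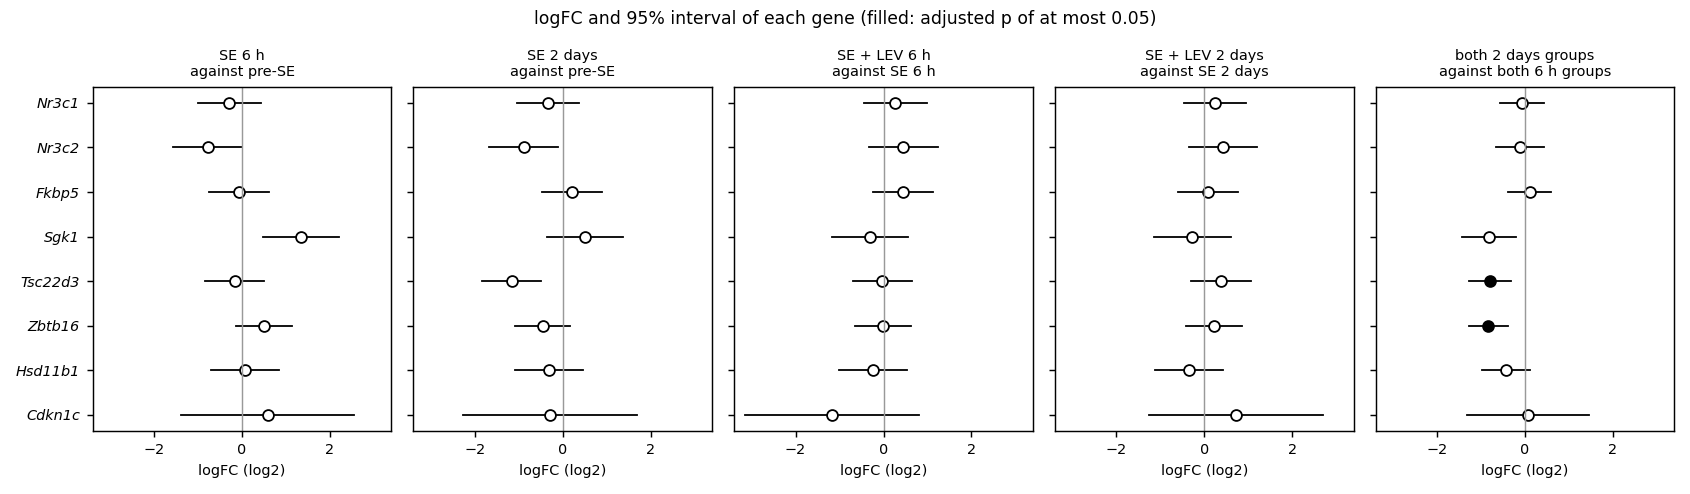
logFC (log2 scale) with its 95% interval for the 8 genes in 4 comparisons between groups and in the contrast of both 2 days groups with both 6 h groups, filled where the adjusted p was at most 0.05. Only *Tsc22d3* (-0.79) and *Zbtb16* (-0.83) in the last contrast are filled, and the intervals of *Cdkn1c* are the widest.

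In the remaining comparisons 0 of 8 genes were called as well. A single gene had an unadjusted p under 0.05 in SE + LEV 6 h against pre-SE (*Sgk1*), in SE + LEV 2 days against pre-SE (*Tsc22d3*) and in SE + LEV 2 days against SE + LEV 6 h (*Zbtb16*), where 0.322%, 2.85% and 2.14% of all genes were called and 9.38%, 10.8% and 11.9% had such a p. In SE 2 days against SE 6 h 2 genes had such a p (*Tsc22d3* and *Zbtb16*), beside 20.1% of all genes, and 4.25% of all genes were called. The median logFC of the 8 genes in that comparison was -0.61, with 7 of 8 estimates below 0, and that of all tested genes was 0.09.

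Differences between mice of the same group were not shared evenly by the 8 genes. In pre-SE, *Fkbp5*, *Sgk1*, *Tsc22d3* and *Zbtb16* were all higher in replicate 1, by 1.70-, 1.82-, 1.52- and 1.61-fold, while *Nr3c1* and *Nr3c2* were higher in replicate 2, by 1.07- and 1.30-fold. The median gap of all tested genes between these mice was 1.25-fold. In SE + LEV 6 h the same 4 target genes were again higher in replicate 1, by 1.03-, 2.27-, 1.70- and 1.32-fold, against a median of 1.28-fold. In the other 3 groups these genes did not all go one way, as *Sgk1* was higher in replicate 2 in SE 6 h (1.05-fold) and SE 2 days (1.39-fold) and *Tsc22d3* and *Zbtb16* were in SE + LEV 2 days (1.08- and 1.42-fold). The 7 genes other than *Cdkn1c* had at least 149 tags in every library and a counting error of at most 8.19%, so that gaps as small as the 1.03-fold of *Fkbp5* are not separable from counting error.

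Other genes of the pathway were taken from 4 lists, and 11 of their genes were called in at least 1 comparison. Of 12 receptor chaperones, 3 were called higher in SE 6 h against pre-SE, where 2.76% of all genes were called higher, and 0 of 12 in SE 2 days (0 at an unadjusted p under 0.05). All 3 were called lower in SE 2 days against SE 6 h, where 1.11% of all genes were called lower. *Dnajb1*, which encodes a heat-inducible Hsp40 cochaperone, was measured at 58.5 and 71.4 CPM in pre-SE, 728 and 399 in SE 6 h, 116 and 66.3 in SE + LEV 6 h, 65.5 and 82.1 in SE 2 days, and 52.3 and 61.7 in SE + LEV 2 days. Both SE 6 h mice stood above all 8 others. Its logFC was 3.06 in SE 6 h against pre-SE (standard error 0.34, adjusted p = 0.00234) and -2.88 in SE 2 days against SE 6 h (standard error 0.34, adjusted p = 0.00285), and both calls held in 10 of 10 fits that left out 1 mouse. In SE + LEV 6 h against SE 6 h it was -2.62 (standard error 0.34, adjusted p = 0.0509), which missed the threshold. It passed under 3 of the 19 alternatives, among them a pseudocount of 1 (-2.61, adjusted p = 0.0427) and log2 *Ttr* as a covariate (-2.61, adjusted p = 0.0228). Without SE 6 h replicate 2 it was -3.05. In this comparison 0 of the 12 chaperones were called and 4 were lower at an unadjusted p under 0.05. Of all genes 0.0126% were called and 4.58% had such a p in either direction.

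The fit without the 4 libraries high in *Ttr* left a single mouse in 4 of the 5 groups. There the logFC of *Dnajb1* in SE 6 h against pre-SE was 3.64. From 6 h to 2 days without LEV it was -3.31 for *Dnajb1*, -2.13 for *Hsp90aa1* and -1.56 for *Dnaja1*. *Hspa8*, a constitutive Hsp70 gene named after its values were seen, had -2.28 there. With all libraries *Hspa8* had -1.36 (adjusted p = 0.191). *Dnaja1*, another Hsp40 gene, had a logFC of 1.34 in SE 6 h against pre-SE (adjusted p = 0.0247), and *Hsp90aa1*, the inducible form of the chaperone that holds the unbound receptor, had 1.52 (adjusted p = 0.042). The call of *Dnaja1* was lost without either pre-SE mouse or either SE 6 h mouse, with adjusted p from 0.068 to 0.186. That of *Hsp90aa1* held in 2 of 10 such fits, those without an SE + LEV 2 days mouse, and its adjusted p ran up to 0.265 without pre-SE replicate 2. From 6 h to 2 days without LEV, the logFC was -1.38 (adjusted p = 0.0181) for *Dnaja1* and -1.79 (adjusted p = 0.0173) for *Hsp90aa1*, and these calls held in 6 and 7 of 10 such fits. Both were lost without SE 6 h replicate 1 (-1.21, adjusted p = 0.112, and -1.44, adjusted p = 0.118), SE 2 days replicate 1 (-1.30, 0.126, and -1.99, 0.0703) or SE 2 days replicate 2 (-1.47, 0.0835, and -1.58, 0.129), and that of *Dnaja1* also without SE 6 h replicate 2 (-1.56, 0.0579). Of 12 coregulators of the receptors, 0 were called by limma in any comparison, and 2 had a higher estimate with an unadjusted p under 0.05 in SE 6 h against pre-SE and 0 in SE 2 days. Their median logFC in SE 2 days against pre-SE was -0.40, beside -0.03 for all genes.

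*Crh*, which encodes corticotropin-releasing hormone, was the only called gene among the 7 tested of the list of ligand metabolism and the corticotropin-releasing hormone axis. It was measured at 5.72 and 3.27 CPM in pre-SE, 46.3 and 69.2 in SE 6 h, 5.62 and 5.12 in SE + LEV 6 h, 1.61 and 5.3 in SE 2 days, and 1.62 and 3.78 in SE + LEV 2 days. Both SE 6 h mice were above 46 CPM, and no other mouse was above 5.72 CPM. These are RNA levels in hippocampus, and release of the hormone was not measured. The logFC was 3.68 in SE 6 h against pre-SE (standard error 0.57, 95% interval 2.40 to 4.96, adjusted p = 0.00912) and -4.22 in SE 2 days against SE 6 h (standard error 0.57, adjusted p = 0.00467). In SE + LEV 6 h against SE 6 h it was -3.38 (standard error 0.57, -4.65 to -2.10) with an adjusted p of 0.126, so that the difference did not pass the test over all genes, and in SE + LEV 6 h against pre-SE it was 0.30 (-0.97 to 1.58, adjusted p = 0.881). The call at 6 h was lost without pre-SE replicate 2 (3.29, adjusted p = 0.0677) or SE 6 h replicate 2 (3.39, adjusted p = 0.0922), and without the 4 libraries high in *Ttr* (adjusted p = 0.371), and the call in SE 2 days against SE 6 h held in 10 of 10 fits without 1 mouse and not without these 4 libraries (-3.93, adjusted p = 0.067).

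Of 26 other genes that glucocorticoids induce in some tissues, 6 were called higher in SE 6 h against pre-SE, beside 2.76% of all genes, and 3 in SE 2 days against pre-SE, beside 5.07%. None was called lower in either by limma. At an unadjusted p under 0.05, 14 were higher and 0 lower at 6 h, and 11 were higher and 5 lower at 2 days. Of all genes 17.7% and 19.8% had such a p in either direction. Many of the 26 genes also answer to neuronal activity, growth factors or inflammation. Their median logFC was 1.08 at 6 h and 0.58 at 2 days, against -0.13 and -0.03 for all genes, and 0 and -0.32 for the 8 receptor and target genes. The fit without the 4 libraries high in *Ttr* left a single mouse in 4 of the 5 groups. There the logFC of *Lcn2* against pre-SE was 4.865 in SE 6 h and 6.2 in SE 2 days. In SE 2 days that of *Mt2* was 2.388, that of *Cebpd* 1.839 and that of *Klf15* -1.995. With all libraries, *Lcn2* alone of these 4 genes was called at 2 days, and the other 3, named after their values were seen, had adjusted p of 0.0617, 0.0611 and 0.153.

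*Dusp1*, a phosphatase gene that restrains MAP kinases, was measured at 14.1 and 17 CPM in pre-SE, 82 and 174 in SE 6 h, 57.6 and 46.1 in SE + LEV 6 h, 47 and 35 in SE 2 days, and 12.6 and 25 in SE + LEV 2 days. Its logFC at 6 h was 2.94 (standard error 0.40, adjusted p = 0.00504), and the call held in 10 of 10 fits that left out 1 mouse and was lost without the 4 libraries high in *Ttr* (2.53, adjusted p = 0.0935). *Errfi1*, which encodes a feedback inhibitor of the EGF receptor, was measured at 77.9 and 88.9 CPM in pre-SE, 718 and 766 in SE 6 h, 467 and 183 in SE + LEV 6 h, 130 and 292 in SE 2 days, and 107 and 101 in SE + LEV 2 days. Both genes were thus highest in the 2 SE 6 h mice. The logFC of *Errfi1* at 6 h was 3.15 (standard error 0.44, adjusted p = 0.00542), and the call was lost without SE 6 h replicate 2 (3.11, adjusted p = 0.0528). Compared between SE 2 days and SE 6 h it was -1.93 (standard error 0.44, adjusted p = 0.0387), the single call of the list there, which held in 5 of 10 fits and was lost without any 1 of the pre-SE mice, the SE 6 h mice or SE 2 days replicate 1 (adjusted p from 0.0517 to 0.229). *Irs2*, an insulin receptor substrate gene, had a logFC of 1.81 (standard error 0.32, adjusted p = 0.0161), a call lost without pre-SE replicate 1 (1.54, adjusted p = 0.124), SE 6 h replicate 1 (1.99, adjusted p = 0.0548) or SE 6 h replicate 2 (1.63, adjusted p = 0.143).

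The genes of this list with the lowest adjusted p at 2 days were *Lcn2*, which encodes an iron-scavenging protein of reactive astrocytes, and *Tgm2*, a transglutaminase gene. *Lcn2* was measured at 0.24 and 0.27 CPM in pre-SE, 9.81 and 14.7 in SE 6 h, 76.1 and 8.16 in SE + LEV 6 h, 20.6 and 30.1 in SE 2 days, and 19.8 and 7.06 in SE + LEV 2 days. Its logFC in SE 2 days against pre-SE was 6.14 (standard error 0.85, adjusted p = 0.00302), and the call held in 10 of 10 fits that left out 1 mouse. Because the pre-SE level was low, the size depended on the pseudocount, and with 1 in place of 0.1 it was 4.37 at 2 days, where the call held, and 3.37 at 6 h, where the call was lost (adjusted p = 0.0724). The 5.09 at 6 h (standard error 0.85, adjusted p = 0.0116) lost its call without any 1 of the pre-SE or SE 6 h mice, with adjusted p from 0.0548 to 0.108. *Tgm2* had a logFC of 2.44 (standard error 0.42, adjusted p = 0.00841) in SE 2 days, lost without pre-SE replicate 2 (2.28, adjusted p = 0.0609), SE 2 days replicate 2 (2.25, adjusted p = 0.0969) or the 4 libraries high in *Ttr* (2.28, adjusted p = 0.0508). The third gene called at 2 days was *Anxa1* (2.31, adjusted p = 0.0282), an annexin gene named after its values were seen. In SE + LEV 6 h against SE 6 h and in SE + LEV 2 days against SE 2 days, 0 of the 26 genes were called (2 and 1 lower at an unadjusted p under 0.05), beside 0.0126% and 0% of all genes. Against pre-SE, 1 of the 26 was called higher in SE + LEV 6 h (*Lcn2*) and 2 in SE + LEV 2 days (*Lcn2* and *Tgm2*). Of all genes 0.322% and 2.85% were called there in either direction. *Tgm2* was also called higher in SE 6 h against pre-SE (1.91). Each of these calls was lost with a pseudocount of 1. Those of *Tgm2* in SE 6 h and in SE + LEV 2 days against pre-SE each held in 8 of the 19 alternatives. Its logFC ran from 1.31 to 2.35 in SE 6 h and from 1.23 to 2.37 in SE + LEV 2 days.

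**Figure D4:**
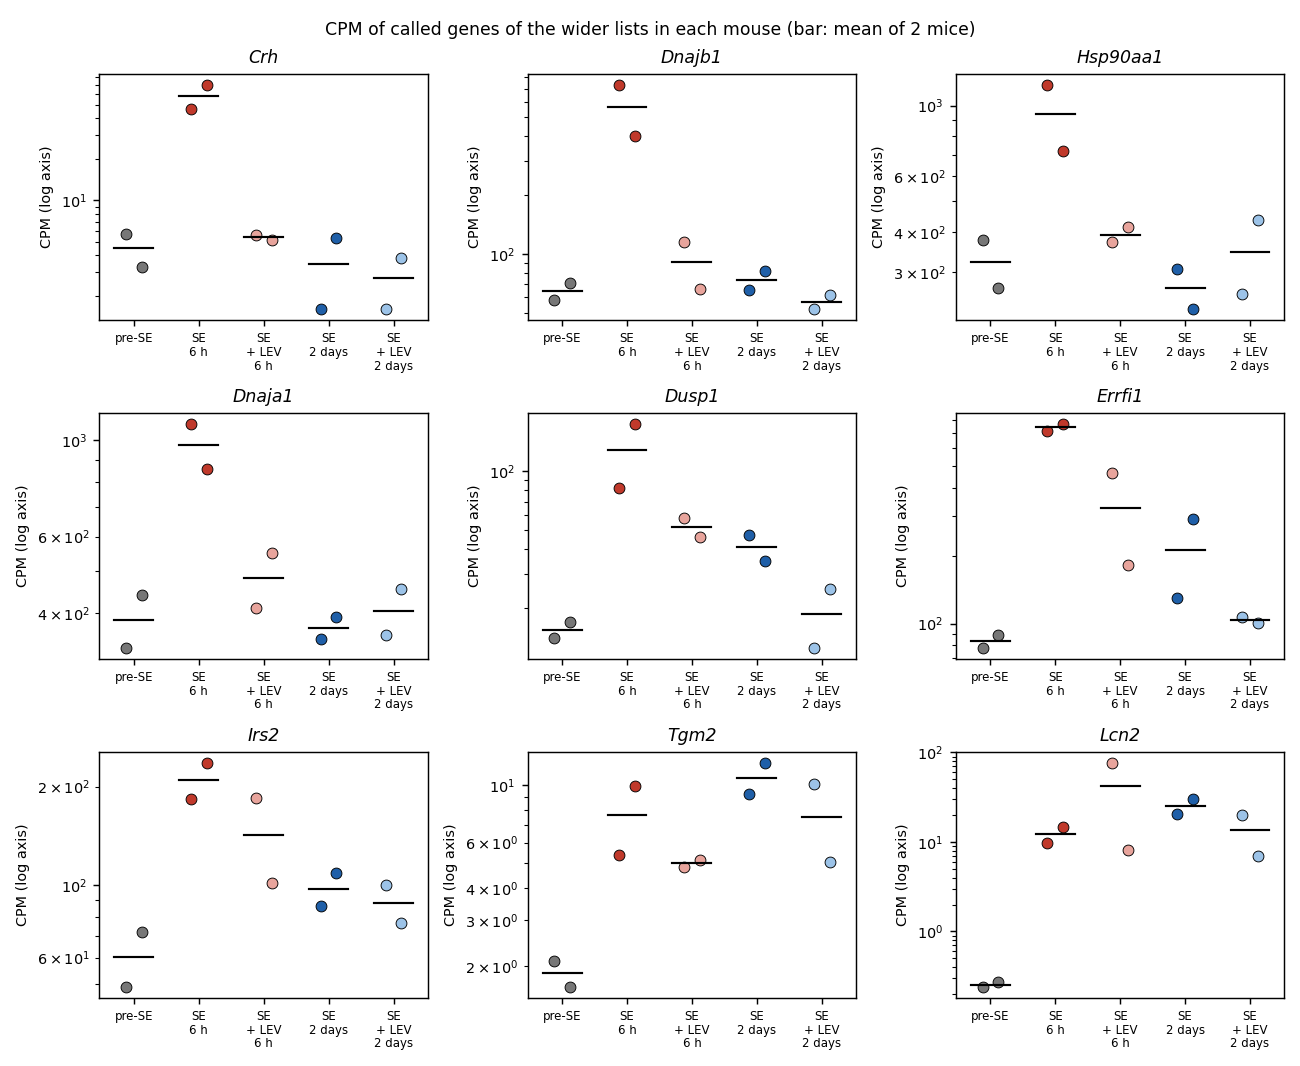
Expression (CPM, log axes) of 9 of the 11 called genes of the wider lists in each of the 10 mice, grouped as in the plot of the 8 genes, with a bar at the mean of 2 mice. In *Crh* both SE 6 h mice (46.3 and 69.2 CPM) are the only ones above 5.72 CPM, and *Lcn2* is above 7 CPM in all 8 mice after SE.

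**Figure D5:**
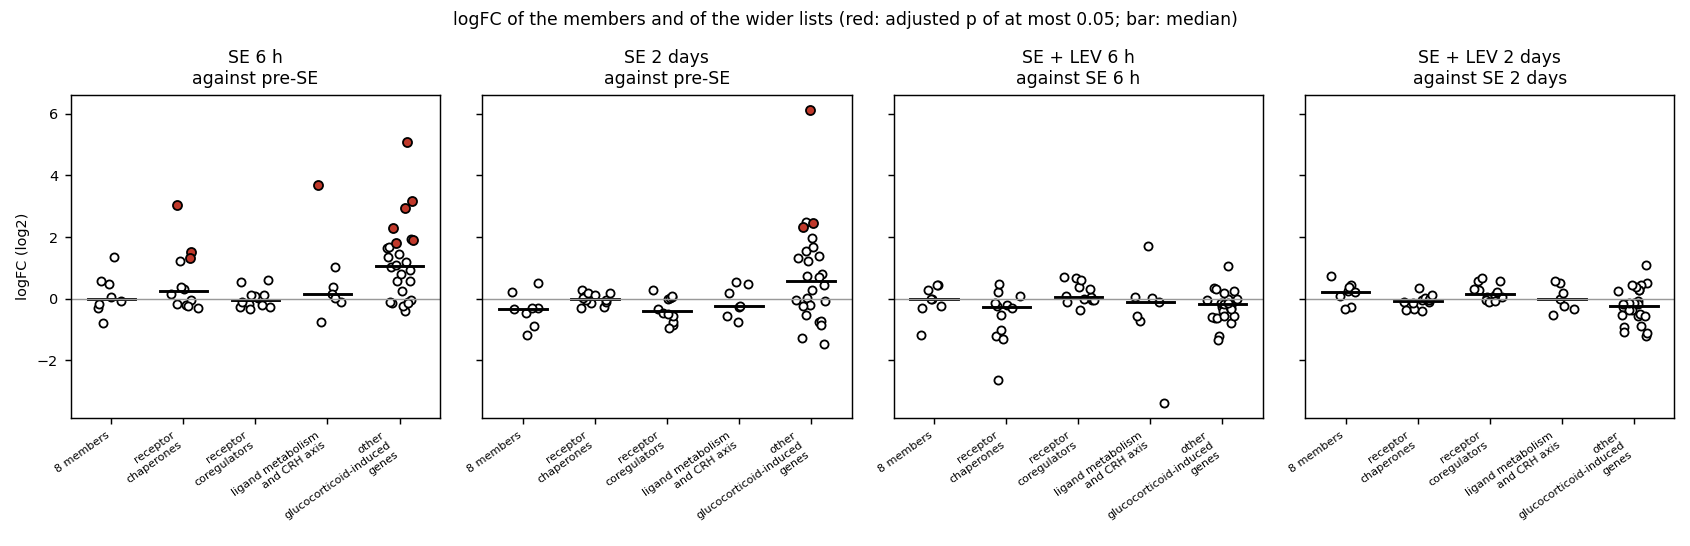
logFC (log2 scale) of the 8 genes and of the genes of the 4 wider lists in 4 comparisons, in red where the adjusted p was at most 0.05, with a bar at the median of each list. Called genes appear in the comparisons of SE 6 h and SE 2 days with pre-SE, and 0 in the comparisons of SE + LEV with SE.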

How the data were processed

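CAGE libraries of hippocampal RNA (RIN over 7) were mapped by the authors to mm9 with BWA 0.7.17 and HISAT2 2.0.5 (versions per the submitters' processing notes) and clustered with RECLU, and clusters under 0.1 CPM, with an irreproducible discovery rate of at least 0.1 or longer than 200 bp were discarded. The authors deposited CPM values, 1 per gene and mouse. The step from clusters to genes, and whether it used strand, is not given in the sources used here. Tag totals were recovered as the smallest total at which every CPM value was a whole number of tags within its 2 decimals (100% of values).

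Groups came from the labels. Genes at 0.1 CPM or more in 2 or more libraries were kept, and log2(CPM + 0.1) was fitted in limma 3.58.1 (R 4.3.3) with 5 group means, a mean-variance trend and all 10 libraries, after tests on simulated data. Two-sided p-values were adjusted by Benjamini-Hochberg over 15851 genes, and genes at 0.05 or less were called. This scale understates changes of low genes. The smallest exact permutation p for 2 mice against 2 is 0.333, so calls rest on the shared spread.

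Members and lists were chosen with earlier results of these data known. All 8 genes are named, as are up to 5 called genes per list by lowest adjusted p, and *Prox1*, *C1ql2*, *Cdh5*, *Aqp1*, *Aqp4*, *P2ry12*, *Tmem119*, *Ptprc*, *S100a8*, *S100a9* and *Ttr* as markers. Genes with profiles nearest to a member were to be named only for members called between groups, and there were none. Alternatives were other pseudocounts, filters and scaling, a replicate block, each mouse left out, and 3 settings and 4 pooled contrasts chosen after seeing the data. *Hsd11b2*, *Cyp11a1*, *Star*, *Serpina6*, *Pomc* and *Mc2r* were not analysed here.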

Additional observations from a re-analysis of the deposited data

How the results depend on the processing

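For the 9 comparisons between groups, the count of called members was unchanged in 163 of 171 counts over the 19 alternatives, and 0 of 79 member values that changed sign were called. In SE 2 days against pre-SE the count of 0 became 1 (*Tsc22d3*) under the replicate block, under the block with the numbers crossed in SE + LEV 2 days and with log2 *Ttr* as a covariate, and ran from 0 to 1 when 1 mouse was left out. In SE 2 days against SE 6 h it became 2 (*Tsc22d3* and *Zbtb16*) under the crossed block and 1 (*Zbtb16*) with the covariate. Of the contrasts added after seeing the data, both 2 days groups against both 6 h groups had 0 in place of 2 without the 4 libraries over 800 CPM of *Ttr* and 0 to 3 with 1 mouse left out. Both 2 days groups against pre-SE had 1 in place of 0 (*Tsc22d3*) under the replicate block, the crossed block and the covariate, and 0 to 1 with 1 mouse left out, and both 6 h groups against pre-SE had 0 to 1. The crossed block, the covariate and the setting without those libraries were also chosen after seeing the data. The setting without those libraries left a single mouse in 4 of the 5 groups. The cause was not tested. Deviations of same-numbered mice correlated between -0.44 and 0.34 over the 10 pairs of groups, above 0.1 in 3. They showed no common direction, and whether the numbers paired the mice cannot be told from them. The replicate block changed the call of no member in the other comparisons of the design. Median-of-ratios rescaling moved the median logFC of all genes from -0.13 to -0.01 in SE 6 h against pre-SE, by more than 0.1, and changed no call of a member. Over the 19 alternatives the chaperones called higher in SE 6 h against pre-SE numbered 1 to 3, and the other glucocorticoid-induced genes called higher numbered 1 to 8 in SE 6 h and 1 to 9 in SE 2 days against pre-SE (0 to 2 called lower at 2 days). The share of all genes called under each alternative is not given here, and these counts are not read as a result about the lists. Tests on recovered tag counts were not run. All values were whole tags within the rounding of the CPM values, which is worth up to 0.259 tag, but in 7 of 10 libraries fewer than 95% of values of at most 20 tags lay within 0.1 tag of a whole number, which was the condition for these tests. Depth limits *Cdkn1c* most, with 7 tags in SE + LEV 6 h replicate 2.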
